A study of Mus musculus with 4 samples.

Results

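Group 2 innate lymphoid cells (ILC2) that had kept their green, non-photoconverted fluorescence were profiled one by one from mouse pancreas. They were the wells of plate 1 recorded as green that held 500 or more genes with a read and under 25% mitochondrial reads. Of 151 green wells, 98 passed, of 1170 sorted cells in the series. The mice are labelled C57BL6J and carried KIKR, a fluorescent protein that is green until light turns it red, and every well of the plate shares that genotype and tissue. The labels call these cells non-photoconverted (KIKR-Green), in contrast to photoconverted (KIKR-Red) cells, and name no feeding state, animal, age, sex or stimulation for them. They do not call the cells resting. The comparison was with 221 wells of the same plate recorded as empty. All 98 cells come from 1 deposited sample, so no difference here has a replicate check and no p-value was computed.

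ILC2 are tissue-resident lymphocytes without rearranged antigen receptors. They depend on the transcription factor GATA3, sense interleukin-33 through its receptor ST2 (the product of Il1rl1), and are held in tissues partly by interleukin-7 and interleukin-2 family signals. When activated they secrete interleukin-5, interleukin-13 and the growth factor amphiregulin, products known for their parts in eosinophil recruitment, mucus production and tissue repair.

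The 98 cells held 17825 to 1274117 gene reads with a median of 187690, against a median of 353 in the empty wells. Genes with at least 1 read numbered 502 to 4480 per cell, with a median of 1637, against a median of 92 per empty well. Spike-in RNA, which is added to every well, gave a similar median in both, 67405 reads in cells and 68050 in empty wells. Of the green wells that did not pass, 52 had too few genes and 1 had too many mitochondrial reads. The members nearest the limits had 502 genes and 23.7% mitochondrial reads, and the nearest wells outside had 498 genes and 27.3%. Red fluorescence of the 98 cells lay between -2415 and 1527 arbitrary units, below the 2202 to 29626 of the 8 photoconverted cells of the plate that passed the same filter. The cells sat in plate rows A to G and 216 of the empty wells in rows H to P, so well content and plate position cannot be told apart.

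A gene was counted as detected in a well at 16 or more reads, since empty wells often held a few reads of a gene. At that level the cells held 115 to 3082 genes, with a median of 864, and the empty wells a median of 3. Of 11352 gene rows, 9467 were detected in at least 1 cell and 1885 in none. Detection in 25% or more of the cells was reached by 857 rows (7.55% of all rows), and 561 of these were detected in 0 empty wells. Detection was at least 5-fold as frequent in cells as in empty wells for 4227 rows (37.2% of all rows), where a gene seen in fewer than 3 empty wells was set to 3 wells, a share of 1.36%. Under this rule a gene needed 7 or more of the 98 cells. The median row was detected in 4.08% of cells, and a gene with 0 of 98 cells is limited to 3.06% by a floor of 3 counts. These shares carry counting error over cells only, given below as 95% exact Clopper-Pearson intervals, and reads were not collapsed to molecules.

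**Figure D1:**
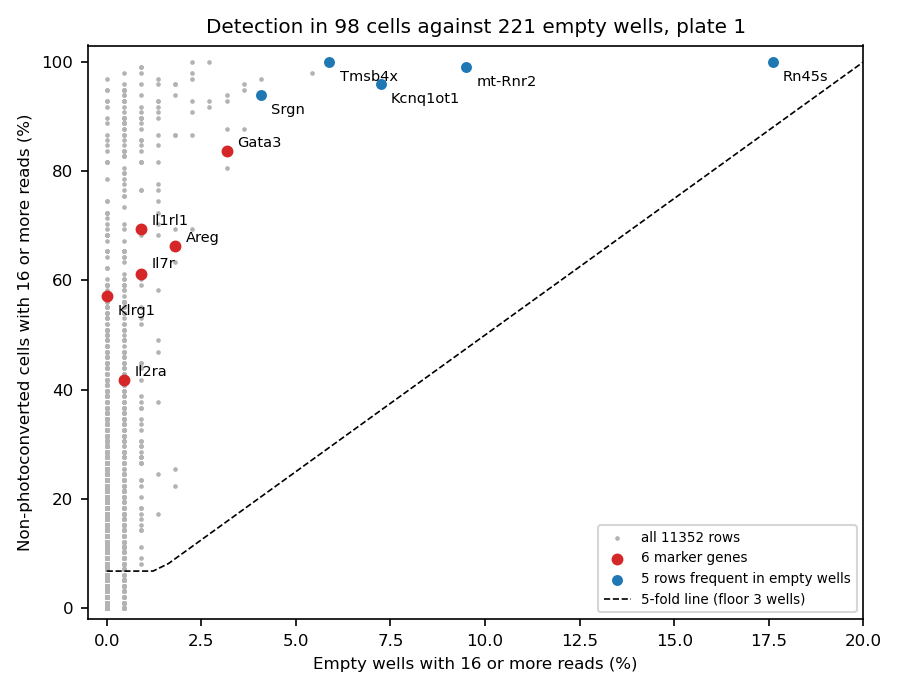
Share of wells with 16 or more reads of each gene row, in empty wells (x axis, %) and in non-photoconverted cells (y axis, %), with the 5-fold line drawn in black. Red points are the 6 marker genes, which lie far above the line, and blue points are rows frequent in empty wells, led by Rn45s at 17.6% of wells.

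Of the 6 defining genes of ILC2, 5 were detected in most of the cells and Il2ra in fewer. Gata3 (chr2:9857078-9890034, mm10, minus strand), the lineage's central transcription factor, ranged from 0 to 8674 reads per 1000000 gene reads of the cell (CPM) with a median of 1732, and was detected in 83.7% of cells (74.8 to 90.4) against 3.17% of empty wells. Il1rl1 (chr1:40429570-40465415, plus strand) ranged from 0 to 10857 CPM with a median of 736 and was detected in 69.4% (59.3 to 78.3). Areg (chr5:91139599-91148432, plus strand), which encodes amphiregulin, ranged from 0 to 9448 CPM with a median of 812 and was detected in 66.3% (56.1 to 75.6). Each of these 3 transcripts was found in a majority of cells and was at 0 in others.

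Il7r (chr15:9505788-9530176, minus strand), the interleukin-7 receptor chain, ranged from 0 to 3053 CPM with a median of 217 and was detected in 61.2% (50.8 to 70.9). Klrg1 (chr6:122270596-122282882, minus strand), an inhibitory lectin receptor of mature ILC2, ranged from 0 to 6096 CPM with a median of 235, with 57.1% of cells (46.7 to 67.1) and 0 empty wells. Il2ra (chr2:11642807-11693193, plus strand), the high-affinity interleukin-2 receptor chain, ranged from 0 to 8132 CPM with a median of 39.2 and was detected in 41.8% (31.9 to 52.2). The intervals of Il1rl1, Areg, Il7r and Klrg1 overlap, and that of Gata3 lies above those of Il7r, Klrg1 and Il2ra.

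Of these 6 genes, 15 cells held all, 27 held 5, 19 held 4 and 3 held none. How many were found moved with depth. Cells with all 6 had a median of 2453 genes, and the 3 cells with none had a median of 688. In the 33 cells with fewest reads, Gata3 was detected in 60.6%, Klrg1 in 24.2% and Il2ra in 12.1%. In the 32 with most reads the shares were 96.9%, 93.8% and 68.8%. A share below 100% in these data is therefore not a share of cells that lack the transcript.

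Over the wider list of 14 ILC2-like markers, 79 cells (80.6%, 71.4 to 87.9) held 3 or more, and 0 empty wells did. An empty well held a median of 3 and at most 27 detected genes of any kind, so that 0 was nearly fixed in advance. Icos, a co-stimulatory receptor, was detected in 42.9% of cells, Calca in 37.8%, Ptpn13 in 32.7% and Il17rb, the interleukin-25 receptor chain, in 30.6%. Rora, a transcription factor required for ILC2 development, was detected in only 6.12% of cells and Nmur1, the neuromedin U receptor, in 1.02%, and neither passed the 5-fold rule. The 19 cells with fewer than 3 markers had a median of 790 genes, against 1792 in the others, and ran from 502 to 2428. The deepest, with 2428 genes and 366060 reads, and another with 1728 genes and 152434 reads each held 2 ILC2-like markers together with Cd3g and Cd3d. They were the 2 cells of the 98 with 2 T cell-like markers, and both go against their label on these genes. Leaving out all 19 changed the 857 widely detected genes to 1081 and the 4227 called genes to 4507. The summed level of the list ran from 67.6 to 33609 CPM per cell, with a median of 8569.

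**Figure D2:**
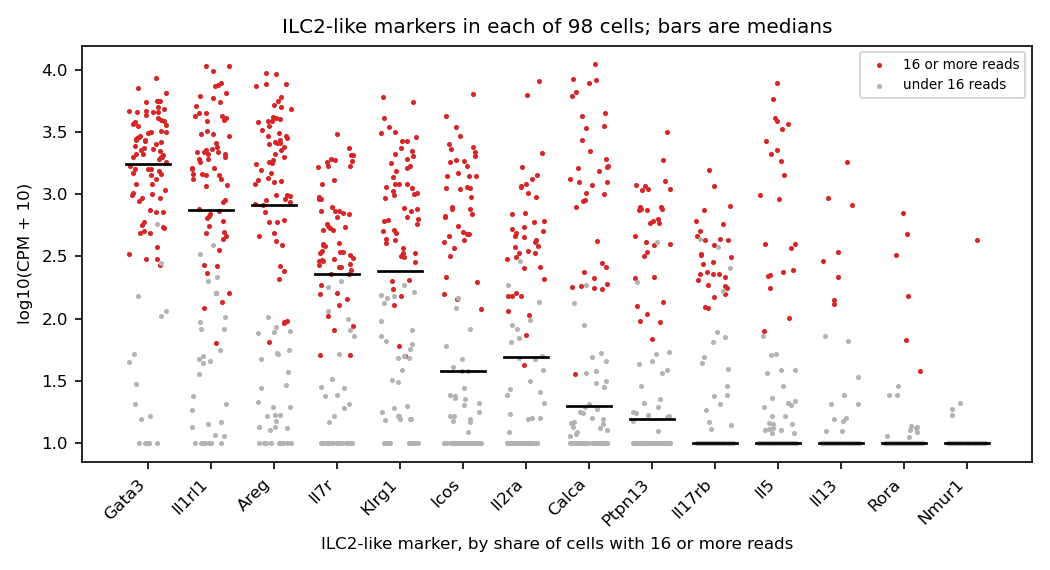
Level of each of the 14 ILC2-like markers in each of the 98 cells, as log10 of CPM plus 10, with red points at 16 or more reads, grey points below and a black bar at the median. Gata3, detected in 83.7% of cells, stands at the left and Nmur1, in 1.02%, at the right.

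No cell held 3 or more markers of any other cell type. The table holds only 5 or 6 markers on the T cell-like, ILC3-like, NK or ILC1-like and acinar lists and 1 or 2 on the others, so this count sets no limit on the share of such cells. Among the T cell-like markers, Cd3g was detected in 9.18% of cells, Cd3d in 2.04%, Cd8a in 1.02% and Cd3e and Cd6 in 0. Their summed level reached at most 2126 CPM in a cell, with a median of 0. On the ILC3-like list, Ltb (46.9%) and Kit (18.4%) were the most frequent and are genes that ILC2 can express, and Il23r and Il1r1 were detected in 0. Of the NK or ILC1-like markers, Nkg7 was detected in 4.08%, Ccl5 in 3.06%, Gzmb in 2.04%, Klrk1 and Gzma in 1.02% and Prf1 in 0, and the summed level reached 5280 CPM in 1 cell.

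The digestive enzyme genes Cpa1, Cela1, Cela2a, Ctrb1 and Try4, made in bulk by the acinar cells around the lymphocytes, were detected in 0 of 98 cells, and their summed level was at most 20.9 CPM. The endocrine marker Pcsk1 and the ductal marker Epcam were each detected in 1.02%, Sox9 and the haemoglobin gene Hbb-bs in 0, and the B cell marker Cd79b in 5.10%. Of the myeloid list Cst3, which many cell types express, was detected in 29.6% and Cd68 in 0. Pecam1, an endothelial and leukocyte adhesion molecule, was detected in 9.18% and Acta2 in 0. The other listed markers of these cell types, insulin and glucagon among them, were not analysed here.

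The transcription factor list had 23 of 30 genes (76.7%) called by the 5-fold rule, against 37.2% of all rows, and 11 (36.7%) in 25% or more of cells, against 7.55%. Id2, which antagonises E proteins and is shared by all innate lymphoid cells, ranged from 0 to 9684 CPM with a median of 841, in 85.7% of cells. Lmo4, a LIM-domain adaptor, ranged from 0 to 20370 CPM with a median of 1899, in 76.5%. Ets1 was detected in 59.2%, Nfkb1 in 55.1% and Bcl11b, a factor that ILC2 share with T cells, in 49 cells (50%). Lower in the order stood Gfi1 (22.4%), Maf (20.4%) and Pparg (13.3%), a lipid-sensing nuclear receptor, while Tcf7, known from ILC progenitors, was found in 2.04% and Zeb2 in 0. The list's median share was 19.4%, against 4.08% over all rows.

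Among cytokine receptors, 17 of 26 genes with a row (65.4%, against 37.2% of all rows) were called and 6 (23.1%, against 7.55%) reached 25% of cells, with a median share of 19.4%. Il2rg, the common gamma chain that both the interleukin-2 and interleukin-7 receptors use, ranged from 14.1 to 30730 CPM with a median of 4365 and was detected in 76.5% of cells. Its partner Il2rb was found in 21.4%. Tnfrsf18, a tumour necrosis factor family co-receptor, was detected in 41.8% and Tnfrsf25, the receptor of TL1A, in 21.4%. Ifngr1 and Il12rb1, receptors of type 1 cytokines, were found in 21.4% and 23.5%, and the interleukin-18 receptor gene Il18r1 in 1.02%.

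Of the secreted products, 14 of 23 genes with a row (60.9%, against 37.2% of all rows) were called and 6 (26.1%, against 7.55%) reached 25% of cells, and the list's median share was 9.18%. The type 2 cytokine genes were detected in a minority of cells at this depth. Il5 (chr11:53720794-53725106, plus strand) had a median of 0 and a highest value of 7808 CPM, and was detected in 23.5% of cells (15.5 to 33.1). Il13 (chr11:53631324-53634702, minus strand) had a median of 0 and a highest value of 1807 CPM, and was detected in 8.16% (3.59 to 15.5). Il4 was found in 9.18% and Csf2, which encodes GM-CSF, in 36.7%, in both cases with 0 empty wells. Calca, which encodes the neuropeptide CGRP, ranged from 0 to 11116 CPM with a median of 9.82, in 37.8% of cells (28.2 to 48.1). Cxcl2, a neutrophil chemoattractant, reached 43598 CPM in 1 cell with a median of 29.9 and was detected in 25.5%. Furin, a proprotein convertase, was detected in 36.7%, Ltb in 46.9%, Csf1 in 23.5% and Tnf and Ccl5 in 2.04% and 3.06%.

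Some products overlapped in the same cells. Areg was detected in 20 of the 23 cells with Il5, all 8 with Il13, 29 of 36 with Csf2 and 27 of 37 with Calca. Over all cells its share was 66.3%. Both Il5 and Il13 were held by 5 cells. Il5 was detected in 2 of the 9 cells with Il4 (22.2%), against 23.5% of all cells. Of Areg, Calca, Csf2, Il5 and Il13, 18 cells held none, 30 held 1, 25 held 2, 12 held 3, 12 held 4 and 1 held all 5. Depth moved with these counts too. Cells with Il5 had a median of 2666 genes against 1528 in cells without it, and Il5 was detected in 9.09%, 18.2% and 43.8% of cells when the 98 were split by reads into 33 low, 33 middle and 32 high cells. Areg was detected in 45.5%, 72.7% and 81.2% of the same sets. The part of depth in the overlap was not tested.

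The core promoters of these genes differ in sequence, and 4 are shown to span the detection range, from Eef1a1 in every cell through Gata3 and Areg to Il13 in 8 cells. Each is the 100 bases before the transcription start in RefSeq (build GRCm38.p6), 5′ to 3′ on the gene's own strand. Capitals mark TATAAA, searched 40 to 15 bases before the start on the gene's own strand only. They also mark the GC box GGGCGG or its complement CCGCCC, and TGACGTCA, the cyclic AMP response element. The GC box and TGACGTCA were searched over 250 bases on both strands.
Eef1a1, chr9:78481725-78481824, minus strand: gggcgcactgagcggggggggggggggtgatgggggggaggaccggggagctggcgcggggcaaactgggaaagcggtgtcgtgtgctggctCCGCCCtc
Gata3, chr2:9878601-9878700, minus strand: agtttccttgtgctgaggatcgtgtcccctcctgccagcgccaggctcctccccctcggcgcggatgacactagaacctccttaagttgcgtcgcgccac
Areg, chr5:91139499-91139598, plus strand: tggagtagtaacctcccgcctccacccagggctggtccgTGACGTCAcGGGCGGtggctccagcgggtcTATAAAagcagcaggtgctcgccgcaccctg
Il13, chr11:53634703-53634802, minus strand: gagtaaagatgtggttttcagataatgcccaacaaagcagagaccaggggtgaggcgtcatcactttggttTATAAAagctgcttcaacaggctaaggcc

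Areg held all 3 motifs within the window printed, Il13 held TATAAA alone and Eef1a1 a GC box. The table held promoters of 13 of the 14 called secreted-product genes. TATAAA stood in 3 of these 15 promoters (20%), those of Areg, Furin and Il13. It stood in 1.99% of all 32851 RefSeq promoters of that table and in 1.13% of those of genes with a row. For genes in 75% or more of the cells it stood in 3.67%. It stood in 2 of 14 promoters (14.3%) of called immediate early genes, in 0 of 13 promoters of called cytokine receptors and in 0 of 27 of called transcription factors. These 13 and 27 promoters cover 11 of 17 called receptor genes and 14 of 23 called transcription factor genes. Whether counts this small differ was not tested. GGGCGG was found in 32.7% of all promoters, in 56.4% of those of genes with a row, and in 12 of 14 (85.7%) of the immediate early genes. A match is a description of the letters, not of a bound site.

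Immediate early genes are transcribed within minutes of a stimulus and need no new protein. At least 1 of the list was detected in 97 of 98 cells. The chaperone, splicing and proteasome lists gave the same count of 97, so it is not particular to this list. Of 23 with a row, 17 (73.9%, against 37.2% of all rows) were called and 15 (65.2%, against 7.55%) reached 25% of cells. Detection in 50% or more of cells was reached by 10 of the 23, and by 240 of all 11352 rows. The list's median share was 36.7%. Junb, an AP-1 subunit, ranged from 18 to 34929 CPM with a median of 4294, in 92.9% of cells (85.8 to 97.1) against 3.17% of empty wells. Zfp36, which destabilises cytokine transcripts, ranged from 0 to 26223 CPM with a median of 3858, in 84.7%. Nr4a1, an orphan nuclear receptor, ranged from 0 to 21178 CPM with a median of 1970, in 77.6%. Btg2 was detected in 75.5%, Jund in 65.3%, Fos in 59.2% and Egr1 in 33.7%. Others of the list were rare, with Atf3 in 4.08% and Nr4a3 and Ier3 in 0. A cell held a median of 10 of the 23 genes, 1 cell held none, and 9.95% of empty wells held at least 1. Junb was near its ceiling at every depth, with 90.9%, 93.9% and 93.8% in the low, middle and high cells.

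Several genes of NF-kB feedback were also widely detected, although the list's median share was 18.4%. Nfkbia, which encodes the inhibitor IkBa, ranged from 20.2 to 14706 CPM with a median of 2612, in 91.8% of cells against 0.452% of empty wells. Tnfaip3, which encodes the deubiquitinase A20, ranged from 0 to 38880 CPM with a median of 3360, in 81.6%. Nfkbiz was detected in 69.4%, the kinase gene Pim1 in 55.1% and Nfkbid in 42.9%. Of the 21 genes with a row, 18 (85.7%, against 37.2% of all rows) were called and 8 (38.1%, against 7.55%) reached 25% of cells. Tnfaip3 and Nr4a1 were both detected in 71 cells, of 80 and 76 that held each. The labels do not give the time from tissue to sort.

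Surface molecules reached a median share of 26.0%, with 18 of 28 genes with a row called (64.3%, against 37.2% of all rows) and 15 (53.6%, against 7.55%) in 25% or more of cells. Cd53, a leukocyte tetraspanin, was detected in 86.7% of cells, Ly6a, which encodes Sca-1, in 72.4%, and Ptprc, which encodes the leukocyte antigen CD45, in 65.3%. Cd69, a retention and activation marker, was found in 51.0% and Thy1 in 31.6%. The checkpoint receptor gene Pdcd1 was found in 25.5% of cells, Ctla4 in 2.04%, and Tigit and Lag3 in 0.

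Receptors for hormones, lipids and neuropeptides had 10 of 23 called (43.5%), close to the 37.2% of all rows, and a median share of 5.10%. Nr3c1, the glucocorticoid receptor, was detected in 43.9% of cells, Ltb4r1, a leukotriene B4 receptor, in 34.7%, Ptgir, the prostacyclin receptor, in 31.6% and Gpr183, an oxysterol receptor, in 23.5%. Ramp3 and Ramp1, co-receptors that shape the calcitonin-family receptors, were found in 27.6% and 21.4%, and their partner Calcrl in 6.12%. The leptin receptor gene Lepr, the VIP receptor gene Vipr1 and the egress receptor gene S1pr1 were detected in 0 of 98 cells. Genes that respond to glucocorticoids or to fasting had 18 of 26 called (69.2%, against 37.2% of all rows) and a median share of 17.3%, with Dusp1 in 64.3%, Gabarap in 39.8%, Txnip in 38.8% and Fkbp5 in 22.4%, and Pdk4 and Cebpd in 0. With no feeding state in the labels, these values have no fed or fasted group to be set against.

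Chemokine receptors and adhesion molecules had 18 of 24 called (75%, against 37.2% of all rows) and a median share of 16.8%. Rgs2, a brake on G protein signalling, was detected in 63.3% of cells, Cxcr6 and the selectin ligand gene Selplg each in 51.0%, Itgb7 in 46.9%, Ccr2 in 44.9%, Itga4 in 42.9% and Itgb2 in 39.8%. Itga4 and Itgb7 encode the 2 chains of the gut-homing integrin. Cxcr4 was found in 20.4% and Ccr9 in 7.14%.

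Signalling genes that ILC2 share with T cells had a median share of 12.8%. Of 28 with a row, 20 (71.4%, against 37.2% of all rows) were called, 7 (25%, against 7.55%) reached 25% of cells and 3 were in no cell. The adaptor gene Lat was detected in 39.8%, Sh2d2a in 36.7%, Lcp2 in 35.7% and Zap70 in 22.4%. Of the CD3 complex, Cd3g was found in 9 cells and passed the 5-fold rule, Cd247 and Cd3d each in 2.04% and Cd3e in 0. The 9 cells with Cd3g had a median of 2428 genes, against 1619 in the others.

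Among metabolic genes, Ldha, which interconverts pyruvate and lactate, ranged from 0 to 10575 CPM with a median of 772 and was detected in 68.4% of cells. Pkm was found in 54.1%, Aldoa in 43.9%, Gpi1 and Pgk1 each in 33.7%, and the glucose transporter gene Slc2a1 in 10.2%. The glycolysis list had 14 of 19 called (73.7%, against 37.2% of all rows). Lipid genes had 17 of 27 called (63%, against 37.2% of all rows). Of these 27, 2 (7.41%) were in 25% or more of cells, near the 7.55% of all rows. The 2 were Dgat1, which makes triglyceride, at 0 to 5703 CPM with a median of 57.0 in 48.0% of cells, and Acadl, of mitochondrial fatty acid oxidation, in 25.5%. Fabp4 and Fabp5 were each detected in 2.04% and Cd36 in 1.02%.

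The housekeeping lists were called nearly throughout, where 37.2% of all rows were called. All 30 actin cytoskeleton genes were called, and Tmsb4x, which sequesters actin monomers, ranged from 635 to 32166 CPM and was detected in all 98 cells. Translation factors had 28 of 28 called, and Eef1a1, the elongation factor that delivers aminoacyl-tRNA, ranged only from 821 to 7013 CPM with a median of 2525. Splicing genes had 29 of 29, chaperones 27 of 28 and proteasome and ubiquitin genes 26 of 27 called. Class I antigen presentation was represented by B2m in 96.9% of cells, H2-K1 in 93.9% and H2-D1 in 92.9%. The class II genes H2-Aa, H2-Ab1 and H2-Eb1 were found in 4.08%, 3.06% and 2.04%. Ly6e, counted among interferon-response genes, was detected in 87.8%, while Irf1 was found in 33.7%, Isg15 in 24.5% and Ifit1 in 6.12%.

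The cell cycle list was the only one of the 21 with a median share, 3.06%, below the 4.08% of all rows. Tubb5 (45.9%), Hmgb2 (26.5%) and Pcna (25.5%) were frequent, and the mitotic genes Mki67, Cdk1 and Ube2c were each found in 3.06% of cells. At least 1 of the 29 genes was detected in 75 cells, and the median cell held 1. The highest held 27, 18 and 10, and these 3 cells were deep, with 3459, 3586 and 3083 genes.

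**Figure D3:**
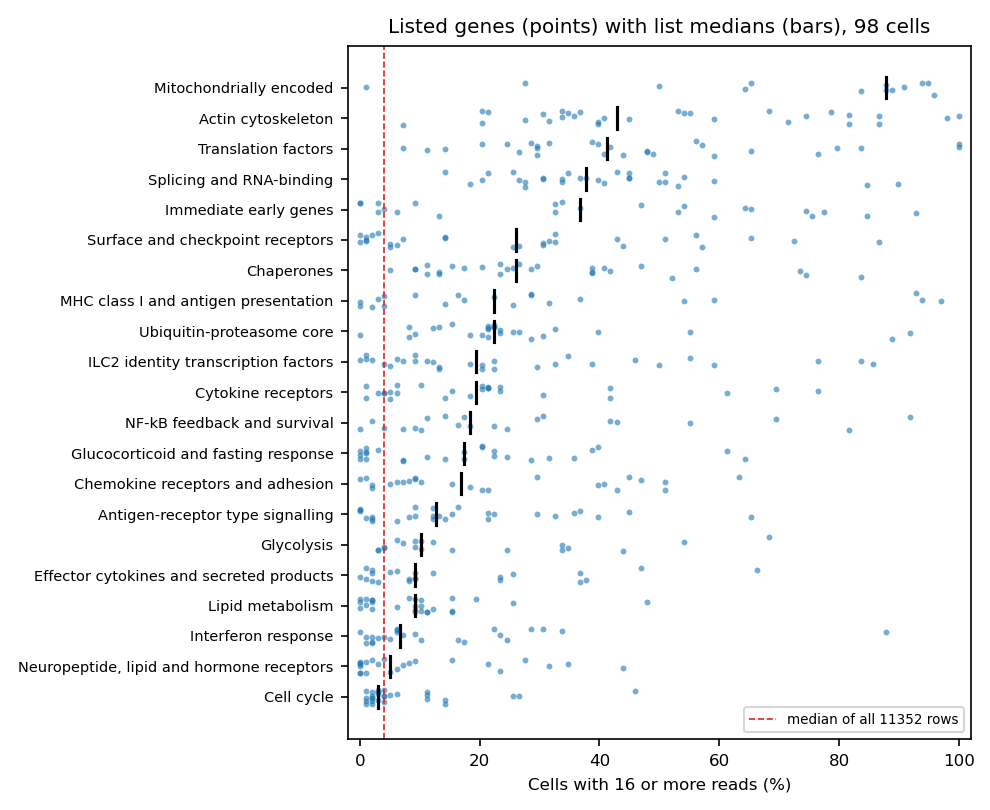
Share of the 98 cells with 16 or more reads (x axis, %) for each gene of the 21 lists, with a black bar at each list's median and a dashed line at the 4.08% median of all rows. Mitochondrially encoded genes lie highest, at a median of 87.8%, and the cell cycle list lies lowest, at 3.06%.

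The reads of a cell were spread over few genes. A cell's own 10 most abundant rows held 12.8% to 48.3% of its reads, with a median of 23.2%, and its top 100 held a median of 56.0%. Protein-coding genes other than ribosomal ones took 66.6% ± 8.25 (SD over 98 cells), ribosomal protein genes and their paralogues 11.8% ± 4.44 and mitochondrial rows 10% ± 5.57. Rn45s, the precursor of ribosomal RNA, took 7.55% ± 7.31 and ranged from 0.112% to 33.4%. Long non-coding RNA took 1.16% ± 1.58. Pooled over all reads of the cells these 5 classes took 68.4%, 11.3%, 10.5%, 6.47% and 0.865%, and pooled over the empty wells 68.8%, 9.27%, 11.3%, 5.19% and 1.57%. Pooled in this way, the few reads of empty wells were close in makeup to those of the cells, apart from the higher long non-coding share. Single wells differed more, with a median mitochondrial share of 3.96% in empty wells and 9.39% in cells. Of 83 ribosomal protein rows, 69 (83.1%, against 7.55% of all rows) were detected in 25% or more of cells.

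**Figure D4:**
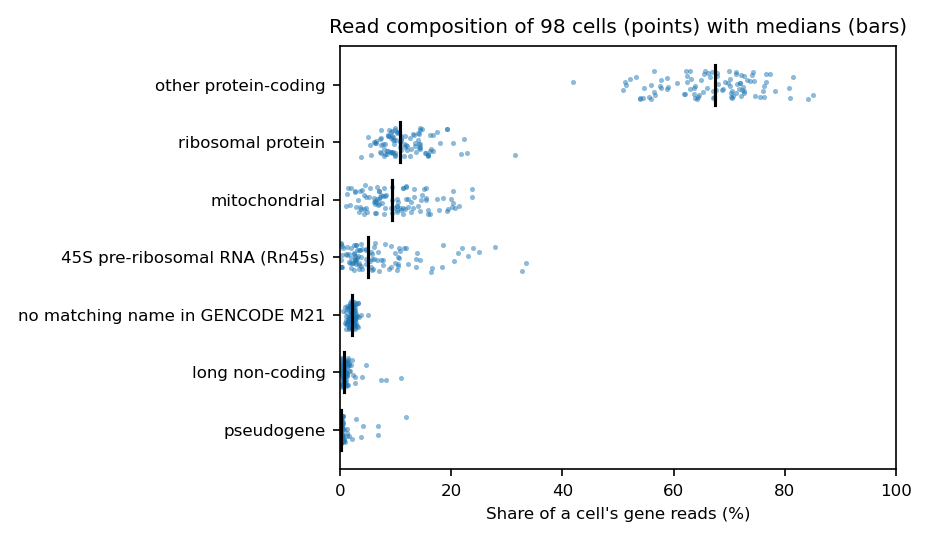
Share of each cell's gene reads (x axis, %) taken by 7 classes of row, 1 point per cell and a black bar at the median. Rn45s spreads from 0.112% to 33.4%, while ribosomal protein genes have a median of 10.8%.

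Srgn, which encodes serglycin, the core proteoglycan of secretory granules, was the nuclear-encoded protein-coding gene with the highest mean level. It ranged from 83.7 to 130752 CPM with a median of 14854, and was detected in 93.9% of cells and 4.07% of empty wells. Its coefficient of variation over cells was 1.15, which is 4.93 times that of spike-in RNA of the same mean. Spike-in RNA is added in equal amount to each well. Its reads were scaled to each cell's own spike-in total, 21304 to 189255 reads, before its variation was taken. Differences between wells in that total are therefore left out, and the ratio does not divide technical from other variation.

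Over the 857 widely detected genes the median ratio to the spike-in line was 1.25, with 139 genes at 2 or more and 215 below 1. These ratios rest on scaling each cell to its own gene reads. With scaling by spike-in reads, which keeps differences in total RNA, the median was 1.45 and 83 genes lay below 1. Ribosomal protein genes had a median ratio of 1.04, and 1.63 with spike-in scaling. Eef1a1 stood below the line at 0.761 and above it at 1.92 with spike-in scaling, and Csf2 at 0.840 and 1.35. Immediate early genes had a median ratio of 1.81, the 6 widely detected secreted products 1.95, and mitochondrial rows 2.85 (4.95 with spike-in scaling). Junb stood at 2.48, Tnfaip3 at 2.78, Il2rg at 2.67, Calca at 2.46, Il1rl1 at 1.98, Areg at 1.86 and Gata3 at 1.38, and with spike-in scaling Gata3 stood at 2.47 and Il2rg at 5.33. Cxcl2 reached 5.32, and 8.37 with spike-in scaling. With scaling to gene reads the highest ratios belonged to the pseudogene 6820431F20Rik (8.75), Rn45s (7.52) and Vmn2r55 (6.56), a vomeronasal receptor gene detected in 58.2% of cells. With spike-in scaling 6820431F20Rik stood at 4.57 and Vmn2r55 at 3.53, below Rn45s (9.55), Cxcl2, mtCytb (7.52) and mtAtp6 (7.33), so the order depends on the scaling.

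**Figure D5:**
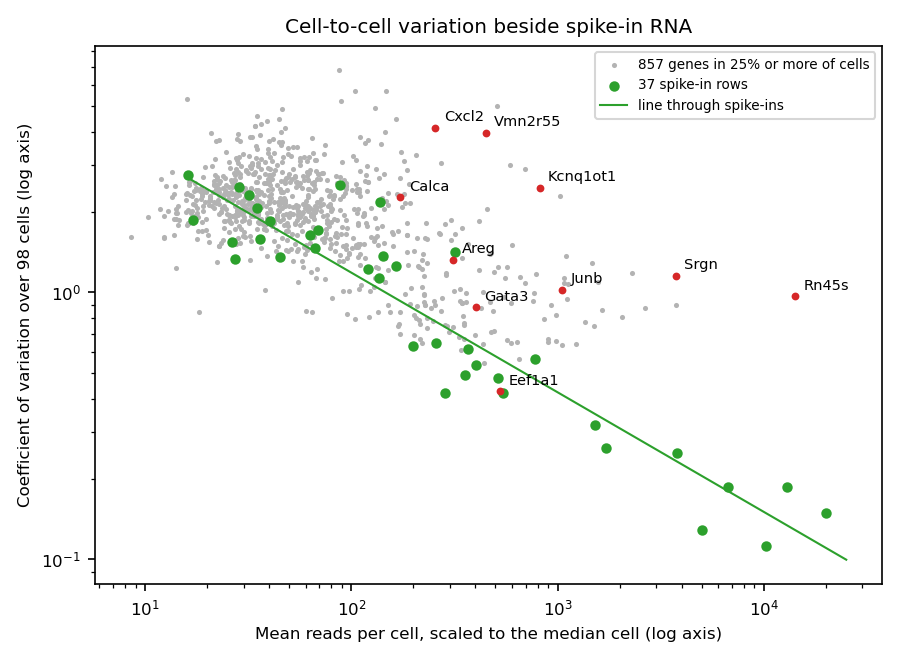
Coefficient of variation over the 98 cells (y axis, log scale) against mean reads per cell scaled to the median cell (x axis, log scale) for the 857 genes in 25% or more of cells (grey, named genes red) and 37 spike-in rows (green) with their fitted line. With this scaling Eef1a1 lies below the line, Gata3 just above it and Srgn, Cxcl2 and Vmn2r55 far above, while with spike-in scaling Eef1a1 (1.92) and Gata3 (2.47) both lie above.

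A further set of genes was high in few cells and near 0 elsewhere. Zfp386, a zinc finger gene, was detected in 11 cells with a median of 4314 CPM among them and a highest value of 57240. Dtnbp1, which encodes dysbindin, was detected in 22 cells with a median of 2681 CPM among them. Arl5c was found in 5 cells with a median of 4391 CPM, and Ano6, a phospholipid scramblase gene, in 6 cells with 3352. All 4 had a median of 0 over the 98 cells and 0 empty wells. Without molecular identifiers, 1 amplified molecule and many transcripts cannot be told apart in such a value.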

How the data were processed

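Single ILC2 were index-sorted into 384-well plates and libraries followed SORT-seq, a form of CEL-seq2, per the labels. The authors deposited raw read counts per row and well (11430 rows, 78 of them spike-ins) and a sort record whose fluorescence intensity is in arbitrary units, per the file headers. The submitters' processing notes name STAR, STARsolo, edgeR and mm10. Row names fit plate 1 only, so the other plates were not used. Counts were scaled to CPM (reads per 1000000 gene reads) without length correction, since 3' ends were read. Wells came from the sort record, and filters, detection level and the 5-fold rule are given with the results. Python 3.11.15, pandas 2.3.3 and scipy 1.17.1 were used, and coordinates are from GENCODE M21. The scripts were tested on simulated data.

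Members, the 21 gene lists and the 12 marker lists were chosen with earlier results of these data known. Named genes are the 30 most widely detected (not all are printed), the 5 highest by mean CPM of each list, all markers, and the 10 highest each of genes high in 5 to 25% of cells, frequent in empty wells, or variable. Others, such as Csf2, Bcl11b, Pparg, Pdcd1, Ramp1, Ramp3, Calcrl, Ccr2, Fos, Egr1 and genes given at 0, were named after their values were seen. Some genes of the lists are not reported here by name. No doublet caller was run on index-sorted single cells.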

Additional observations from a re-analysis of the deposited data

How the results depend on the processing

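Detection level, drawing cells down to fewer reads and fold each moved the counts. The 857 genes in 25% or more of cells became 1318 at 4 reads, 469 at 64 reads and 230 when each cell was drawn down to 1000 gene reads. The 4227 genes past 5-fold became 2648 at 64 reads, 710 when drawn down and 2017 at 10-fold. Of the 521 listed genes with a row, 386 (74.1%, against 37.2% of all rows) were called. When drawn down, 120 of the 521 were called, against 710 of all 11352 rows. The share of cells with 3 or more ILC2-like markers was 80.6%, and 93.9% at 4 reads, 70.4% at 64 reads and 92.1% over the 76 cells with 1000 or more genes. Gata3 was detected in 67.4% and Il7r in 26.5% of cells when drawn down. The drawn-down values did not keep the detection level of 16 reads but used a lower one. Cd3e, at 16 or more reads in 0 cells, had a drawn-down share of 0.0357%. Fewer reads and a lower level thus changed together in the drawn-down values, and their separate parts in these shifts were not tested.

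Leaving out the 3 cells with 10 or more cell cycle genes left 800 genes in 25% or more of cells, 796 of them shared, and 3951 past 5-fold. Leaving out the 19 cells with fewer than 3 ILC2-like markers gave 1081 and 4507. This alternative was added after seeing the data, as were that for Rn45s and some of those for the listed genes. With spike-in scaling, 186 genes in place of 139 varied at 2 or more times the spike-in line, and without Rn45s in the total ribosomal protein genes took 12.7% in place of 11.8%. No paired analysis was possible because the cells form 1 group from 1 sample.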

Other observations

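A set of 6 rows, none of them on the gene lists, varied together across the 98 cells. Kcnq1ot1, a long non-coding RNA of an imprinted locus, was detected in 95.9% of cells and 7.24% of empty wells and ranged from 0 to 72708 CPM with a median of 1208. Rows like it by rank correlation over cells were A630089N07Rik (0.681), Gm17821 (0.675), Grk4 (0.595), Vmn2r55 (0.595) and Gm10785 (0.535). Gm10845, further down the order, stood at 0.265. Among the 15 pairs of the 6 rows the correlation ran from 0.447 to 0.757 with a median of 0.595, against a median of 0.111 over all pairs of widely detected genes. The 6 rows were chosen by their correlation with Kcnq1ot1, so their mutual correlation restates that choice. The points share a library and a per-cell total, and the values are descriptions.

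Together the 6 rows took between 0% and 34.3% of a cell's gene reads, with a median of 0.408%. Kcnq1ot1 had a rank correlation of -0.347 with gene reads, -0.268 with the number of genes, -0.209 with the mitochondrial share and 0.0626 with spike-in reads. The source of these reads was not tested.

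Y-linked genes (Ddx3y, Eif2s3y, Kdm5d or Uty) were detected in 43 cells (43.9%). The labels give no sex, and at this depth a cell without them is not shown to lack them.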
